A study of Homo sapiens with 16 samples.

Results

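The genes of epithelial cell adhesion described here are 10 components of desmosomes and adherens junctions, followed in HCC70, a basal-like breast cancer cell line. They were taken by name: the plakophilins PKP3 and PKP2, desmoplakin (DSP), plakoglobin (JUP), the desmosomal cadherins DSC2 and DSG2, the desmosomal membrane protein PERP, E-cadherin (CDH1), P-cadherin (CDH3) and beta-catenin (CTNNB1). All 10 were present among the 11282 genes of the deposited table, and all 10 passed the filter on low values that left 10826 genes for testing. The line carried lentiviral short hairpin RNA (shRNA) constructs, with 2 libraries for each of 8 constructs. Of these, 4 are aimed at genes of transcription regulators (KLF5, RBPJ, NFIB, FOXA1) and 4 are controls: shRFP, shLACZ and shLUC, named for genes that human cells lack, and plko, named for the vector backbone. The labels give each of the 16 libraries its own clone identifier, including both libraries of each control, so the spread within a construct includes differences between clones. They do not say whether each library came from a separate culture, so each p-value reflects variation among these 16 libraries, part of which may be technical. The 6 libraries of shRFP, shLACZ and shLUC are called the hairpin controls and form the reference. The 2 plko libraries were kept as a group of their own, since earlier results of these data had shown them apart. The series title concerns regulators of heterogeneity among basal-like cells and the symmetry of their divisions.

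Desmosomes couple the keratin network of neighbouring epithelial cells. Their cadherins (desmocollins and desmogleins) bind across the gap, plakoglobin and plakophilins bind the cadherin tails, and desmoplakin links this plaque to keratin filaments. Adherens junctions use classical cadherins, whose tails bind beta-catenin or plakoglobin and, through alpha-catenin, the actin cytoskeleton. In breast epithelium E-cadherin is typical of luminal cells and P-cadherin of basal cells, and beta-catenin is also the transcriptional effector of Wnt signalling.

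Values are the deposited normalized signal, in which the authors divided each library's reads by 1 size factor, and a fold change is on the log2(value + 1) scale. Libraries held 375713 (plko 1) to 3090666 (RBPJ 1) reads. Reads for a single one of the 10 genes ran from 17 (PKP3 in plko 1) to 2924 (CDH3 in RBPJ 1). KRT5, a basal keratin, was at 2085 to 4517 in the 16 libraries, and the epithelial gene EPCAM was at 278 to 386. The hormone receptor genes ESR1 and PGR did not exceed 10.7 and 6.15. Of 8 basal and general epithelial markers, KRT5 and EPCAM among them, limma called 0 with KLF5, where it called 11% of all genes tested. With KLF5, 1 of the 8 had an unadjusted limma p under 0.05, TRIM29. With plko 2 fell, KRT6B (log2 -1.54, limma adjusted p = 0.0421) and TRIM29 (-1.10, limma adjusted p = 0.0366), where 5.63% were called lower. The summed signal of the 8 was 4207 to 6441 in the hairpin controls, 3153 to 4546 in plko and 4425 to 4868 in KLF5. It was 3814 to 7369 in RBPJ, 3483 to 7903 in NFIB and 4847 to 7450 in FOXA1. The targeted transcript was at 63.4% and 37.8% of the hairpin control mean for KLF5, 71.1% and 12.6% for NFIB and 24.4% and 58.6% for FOXA1. For RBPJ it was at 89.5% in the library labelled RBPJ 1, against 17.7% in RBPJ 2. The RBPJ values below therefore come from a library with little change of its target and from one with a strong reduction. The KLF5 transcript was at 62.6 in KLF5 1, 70.6 in plko 1 and 96.0 in plko 2, against 88.7 to 112 in the hairpin controls. KLF5 1 thus had the weaker reduction of its target. PKP3 and PERP, called below for KLF5 against the hairpin controls, were lower in KLF5 1 (22.7 and 359) than in KLF5 2 (58.3 and 484).

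PKP3 (ENSG00000184363), an armadillo-repeat protein of the desmosomal plaque, varied most. In the hairpin controls it was at 183.6, 176, 158, 109, 119 and 145, with a mean of 148 ± 30.0 (SD, n = 6). It was at 37.5 and 29.7 with plko and at 22.7 and 58.3 with the KLF5 hairpins, so all 4 of these libraries lay below every hairpin control. The FOXA1 libraries, at 69.8 and 99.1, were lower than every hairpin control as well. The NFIB libraries were at 108 and 116, next to the lowest controls. The 2 RBPJ libraries were far apart, at 58.7 in the library labelled RBPJ 1 and 224 in RBPJ 2. Their exact 95% Poisson intervals, which cover counting error only, were 51.4 to 66.7 and 204 to 245, so the gap between these clones exceeds counting error. In order of construct means PKP3 ran from plko (33.6) through KLF5 (40.5), FOXA1 (84.5), NFIB (112), shLUC (132), shLACZ (133) and RBPJ (141) to shRFP (179.8). Neighbours in that order whose libraries overlapped were plko and KLF5, shLUC and shLACZ, shLACZ and RBPJ, and RBPJ and shRFP.

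PKP3 fell by 2.09 on the log2 scale with plko against the hairpin controls (SE 0.35, limma adjusted p = 0.000881). With the KLF5 hairpins it fell by 1.97 (SE 0.35, limma adjusted p = 0.000601). The KLF5 and plko libraries themselves differed by 0.13 (95% interval -0.76 to 1.01, limma adjusted p = 0.91). With all 8 controls as reference, plko included, the KLF5 difference was -1.44 and did not pass (limma adjusted p = 0.138), and without KLF5 1 it was -1.31 (limma adjusted p = 0.0958). FOXA1 was at -0.80 (95% interval -1.52 to -0.08), NFIB at -0.38 (-1.10 to 0.35) and RBPJ at -0.34 (-1.06 to 0.38), with limma adjusted p of 0.676, 0.873 and 0.945. Without the library labelled RBPJ 1 the RBPJ difference was 0.62. Set against each other, KLF5 and RBPJ differed by -1.63 (SE 0.43, limma adjusted p = 0.0265) and KLF5 and NFIB by -1.59 (SE 0.43, limma adjusted p = 0.0252). Against FOXA1 the difference was -1.17 (95% interval -2.05 to -0.28, limma adjusted p = 0.111). In bulk libraries, fewer cells of a type and less RNA per cell cannot be told apart. KRT8, a keratin of simple epithelium, was at 22.1 and 14.3 with plko and 13.5 and 12.8 with KLF5, against 219 ± 32.4 (SD, n = 6) in the hairpin controls. ACTB, cytoplasmic actin, was at 489.8 and 539.7 with plko and 161 and 275 with KLF5 against 2005 ± 258 (SD, n = 6). Of 6 hormone receptor and luminal markers tested, of 7 listed, 3 fell and 1 rose with KLF5, and 3 fell and 0 rose with plko. Over all genes tested 6.61% were called lower and 4.42% higher with KLF5, and 5.63% lower and 1.88% higher with plko. The summed signal of the 7 was 1425 to 1873 in the hairpin controls, 968 to 1112 in plko and 728 to 921 in KLF5. The part of these shifts in the PKP3 difference was not tested.

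**Figure D1:**
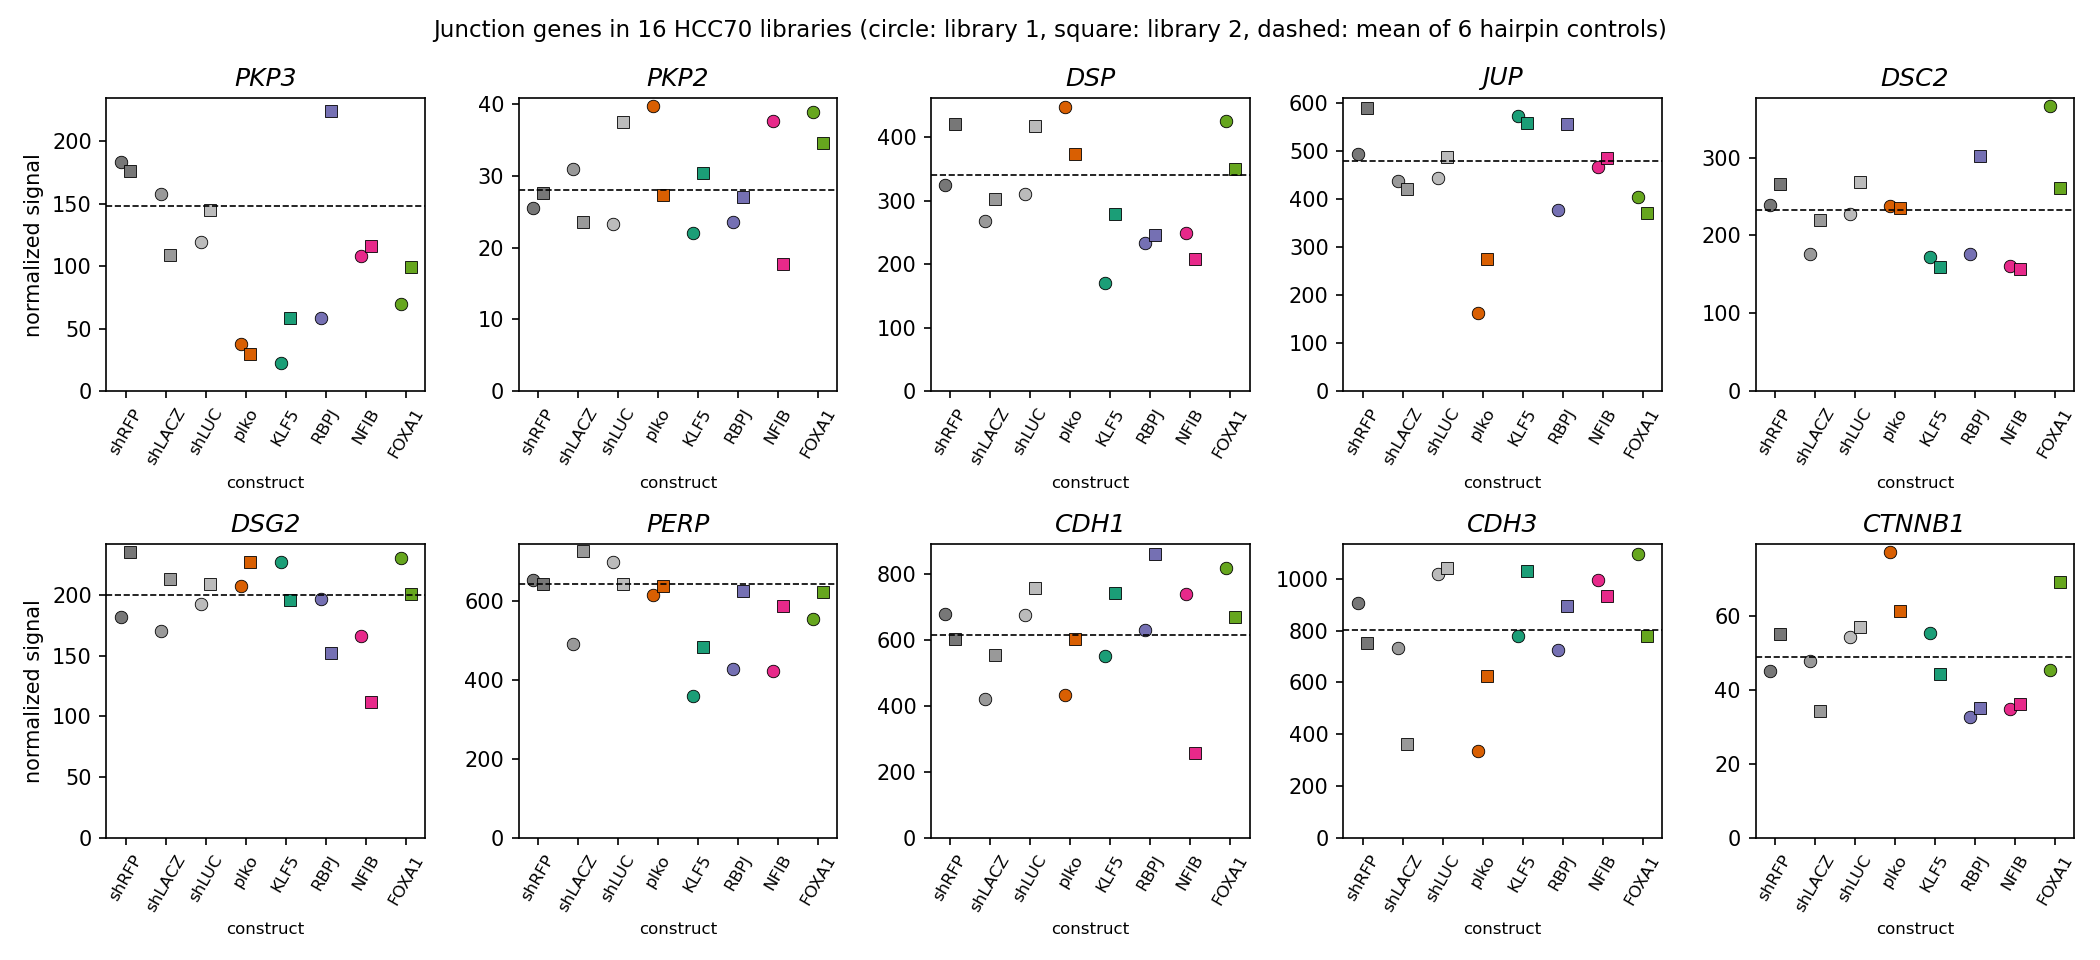
Normalized signal (vertical axes, each from 0) of the 10 genes by construct, with library 1 as a circle, library 2 as a square and the mean of the 6 hairpin control libraries as a dashed line. PKP3 is at 22.7 to 58.3 in the plko and KLF5 libraries, below every hairpin control, and JUP is low in the plko libraries at 163 and 276.

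PKP2 (ENSG00000057294), the most widely expressed plakophilin, was at 23.3 to 37.4 in the hairpin controls, with a median of 26.5. Over all 16 libraries it ran from 17.7 in NFIB 2 to 39.7 in plko 1, and every pair of neighbouring constructs overlapped. Its values rest on 18 to 95 reads per library, and the spread of the hairpin controls (coefficient of variation 19.2%) was close to the 18.6% that counting alone gives. PKP2 passed in 0 of the 6 comparisons. The largest of the 5 differences from the hairpin controls was FOXA1, at 0.39 (95% interval -0.19 to 0.97, limma adjusted p = 0.835). The PKP3 to PKP2 ratio was 0.944 and 1.09 in plko, 1.03 and 1.92 in KLF5, and 3.87 to 7.2 in the hairpin controls.

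JUP (ENSG00000173801), which sits in both desmosomes and adherens junctions, was low with plko but not with the KLF5 hairpins. It was at 163 and 276 in plko 1 and plko 2, against a lowest, median and highest hairpin control of 421, 465 and 589. The KLF5 libraries were at 572 and 558, inside the control range. JUP fell by 1.16 with plko (SE 0.20, limma adjusted p = 0.000948) and was higher with KLF5 than with plko by 1.41 (SE 0.24, limma adjusted p = 0.00461). Without plko 1, the shallowest library and the one with the lowest JUP, these values were -0.78 (limma adjusted p = 0.113) and 1.03 (limma adjusted p = 0.144), and without KLF5 1 the second was 1.39 (limma adjusted p = 0.0549). Against the hairpin controls the KLF5 difference was 0.25 (95% interval -0.16 to 0.65, limma adjusted p = 0.474). The FOXA1 libraries, at 405 and 371, lay below all 6 hairpin controls without passing (-0.30, 95% interval -0.70 to 0.11, limma adjusted p = 0.817). RBPJ was at 378 and 556 and NFIB at 467 and 485.

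**Figure D2:**
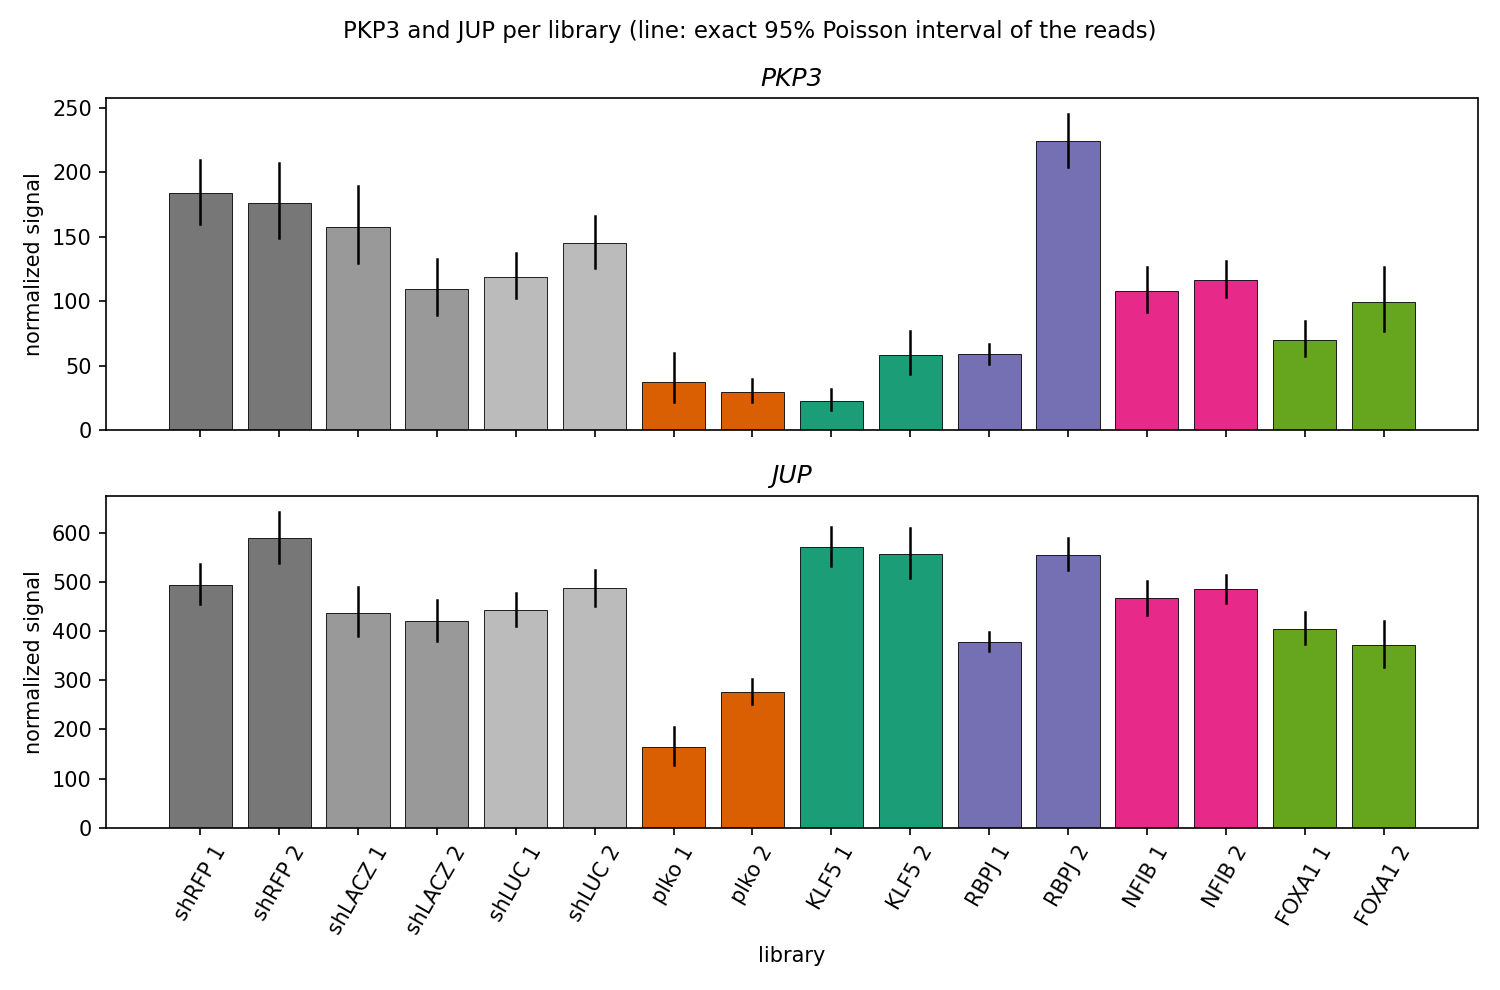
Normalized signal (vertical axes) of PKP3 and JUP in each of the 16 libraries (horizontal axis, bars coloured by construct), with the exact 95% Poisson interval of the reads as a line. The intervals of the 2 RBPJ libraries do not meet for PKP3 (51.4 to 66.7 and 204 to 245), and JUP is lower in the plko libraries (163 and 276) than in any other.

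DSP (ENSG00000096696), the plakin that ties the plaque to keratin filaments, was lower with KLF5 than with plko. Its hairpin controls had a lowest, median and highest value of 268, 318 and 420.4. It was at 447.9 and 373 with plko and at 169.9 and 279 with the KLF5 hairpins. The RBPJ libraries were at 234 and 246 and the NFIB libraries at 249 and 208, all 4 below every hairpin control, while FOXA1 was at 425 and 349.98. The KLF5 against plko difference was -0.91 (SE 0.25, limma adjusted p = 0.0459). That call was lost with edgeR's quasi-likelihood test on recovered reads (edgeR adjusted p = 0.0833) and without KLF5 1 (-0.55, limma adjusted p = 0.386) or plko 1 (-0.77, limma adjusted p = 0.39). The adjusted p also rose above 0.05 without shRFP 1, shRFP 2, shLACZ 2, shLUC 1, shLUC 2, FOXA1 1 or FOXA1 2, to between 0.0521 and 0.062 by limma. Against the hairpin controls the KLF5 difference was -0.62 (95% interval -1.05 to -0.20) and missed the threshold at a limma adjusted p of 0.0513. RBPJ and NFIB stood at -0.48 (95% interval -0.91 to -0.06) and -0.56 (-0.98 to -0.13), with limma adjusted p of 0.785 and 0.678.

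PERP (ENSG00000112378), a tetraspan protein of desmosomes and a p53 and p63 target, was at 359 and 484 with the KLF5 hairpins. The hairpin controls ran from 492.8 to 727 with a median of 650.1, so both KLF5 libraries lay below them. PERP fell by 0.62 with KLF5 (SE 0.19, limma adjusted p = 0.0418). With all 8 controls the difference was -0.61 and did not pass (limma adjusted p = 0.073). Without 1 library the adjusted p rose above 0.05 for shRFP 1, shRFP 2, shLACZ 2, shLUC 1, shLUC 2, KLF5 1, KLF5 2, FOXA1 1 and FOXA1 2, to between 0.052 and 0.455 by limma. The plko libraries were inside the control range, at 616 and 638 (-0.03, 95% interval -0.43 to 0.37). RBPJ was at 428 and 628, NFIB at 424 and 589.8, and FOXA1 at 556 and 624.9.

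RefSeq promoter sequences (GRCh38.p14) were at hand for 6 of the 10 genes, with 8 start sites. The 250 bases before a start are shown, 5′ to 3′ on the gene's strand, for DSP, PERP and JUP, the genes with an entry that passed against the hairpin controls or between KLF5 and plko. Capitals mark the GC box GGGCGG and the CACCC box CCACCC, on either strand. Both are sequence types that SP and KLF family factors can bind, and where matches overlap the capitals run together.
DSP, chr6:7541421-7541670, + strand: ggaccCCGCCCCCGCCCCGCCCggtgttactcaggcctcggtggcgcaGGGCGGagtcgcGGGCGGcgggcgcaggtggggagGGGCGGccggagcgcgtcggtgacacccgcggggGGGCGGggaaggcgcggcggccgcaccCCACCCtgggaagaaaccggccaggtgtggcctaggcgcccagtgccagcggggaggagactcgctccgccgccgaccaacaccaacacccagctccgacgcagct
PERP, chr6:138107420-138107669, - strand: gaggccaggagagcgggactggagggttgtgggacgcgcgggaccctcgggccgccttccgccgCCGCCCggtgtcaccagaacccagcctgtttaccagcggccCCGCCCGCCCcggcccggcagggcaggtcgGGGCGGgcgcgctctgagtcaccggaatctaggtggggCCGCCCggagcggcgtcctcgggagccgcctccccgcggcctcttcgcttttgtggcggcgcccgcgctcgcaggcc
JUP, chr17:41786712-41786961, - strand: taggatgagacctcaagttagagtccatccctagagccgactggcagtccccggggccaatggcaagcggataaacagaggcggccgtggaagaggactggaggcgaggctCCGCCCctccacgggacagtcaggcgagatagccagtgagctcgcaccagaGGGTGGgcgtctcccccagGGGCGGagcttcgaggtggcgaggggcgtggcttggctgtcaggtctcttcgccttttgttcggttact
The DSP window held 7 GC boxes and 1 CACCC box, the PERP window 5 and 0, and the JUP window 2 and 1. Members not shown, without a call against the hairpin controls, held such boxes too. The CTNNB1 window had 3 GC boxes and 1 CACCC box and the DSG2 window 2 and 2. The windows of the DSC2 starts had 2 and 1, and 1 and 0. The second JUP start listed by RefSeq had 0 GC boxes and 3 CACCC boxes. Of 35116 promoter windows of the same length, 42.6% held a GC box and 31.3% a CACCC box. GC content was 78%, 77.2% and 63.6% in the DSP, PERP and JUP windows, against a median of 58% over all windows. The Snail and ZEB E-box CACCTG, present in 17.5% of windows, occurred in 2 copies in the DSP window and in 0 copies in the PERP window and in the JUP window shown, and in 2 copies at the second JUP start. The motifs and windows were not tested against the expression values, and a match is a run of letters, not a bound site.

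The desmosomal cadherins did not pass against the hairpin controls. DSC2 (ENSG00000134755), the desmocollin of simple and stratified epithelia, had a lowest, median and highest hairpin control of 176, 234 and 268. It was at 172 and 159.8 with KLF5 and at 161 and 157 with NFIB, all below the controls, and at 366 and 261 with FOXA1. The differences were -0.47 (95% interval -0.90 to -0.05) for KLF5, -0.53 (-0.96 to -0.11) for NFIB and 0.42 (0.00022 to 0.84) for FOXA1, with limma adjusted p of 0.147, 0.691 and 0.718. KLF5 and FOXA1 differed from each other by -0.90 (SE 0.25, limma adjusted p = 0.0336), and NFIB against FOXA1 was at -0.96 (95% interval -1.47 to -0.44, limma adjusted p = 0.182). RBPJ was at 176 and 302, with a gap between its clones, and plko at 238 and 235.

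DSG2 (ENSG00000046604), the most widely expressed desmoglein, had the smallest spread of the 4 cadherins in the hairpin controls (coefficient of variation 11.8%). Its hairpin controls ran from 170.4 to 236 with a median of 201, and the plko, KLF5 and FOXA1 libraries all lay between 196 and 231. The NFIB libraries were at 167 and 112, both below every control, for a difference of -0.54 (95% interval -0.93 to -0.16, limma adjusted p = 0.651). Of 6391 genes with a mean value of at least 20, NFIB itself had the pattern most like DSG2 over the 16 libraries (Pearson r = 0.86 on log2 values, a description). NFIB 2, with NFIB at 42.2 and DSG2 at 112, was lowest for both genes. RBPJ 2 was next, with NFIB at 201 and DSG2 at 152, and NFIB 1 followed, with NFIB at 238 and DSG2 at 167. Without the 2 NFIB libraries r was 0.58 over 14 libraries, so much of the value rests on them. At the high end NFIB was at 461 and 607 in plko and 492.6 and 522 in KLF5, where DSG2 was at 207, 227, 227 and 196 in the same order.

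**Figure D3:**
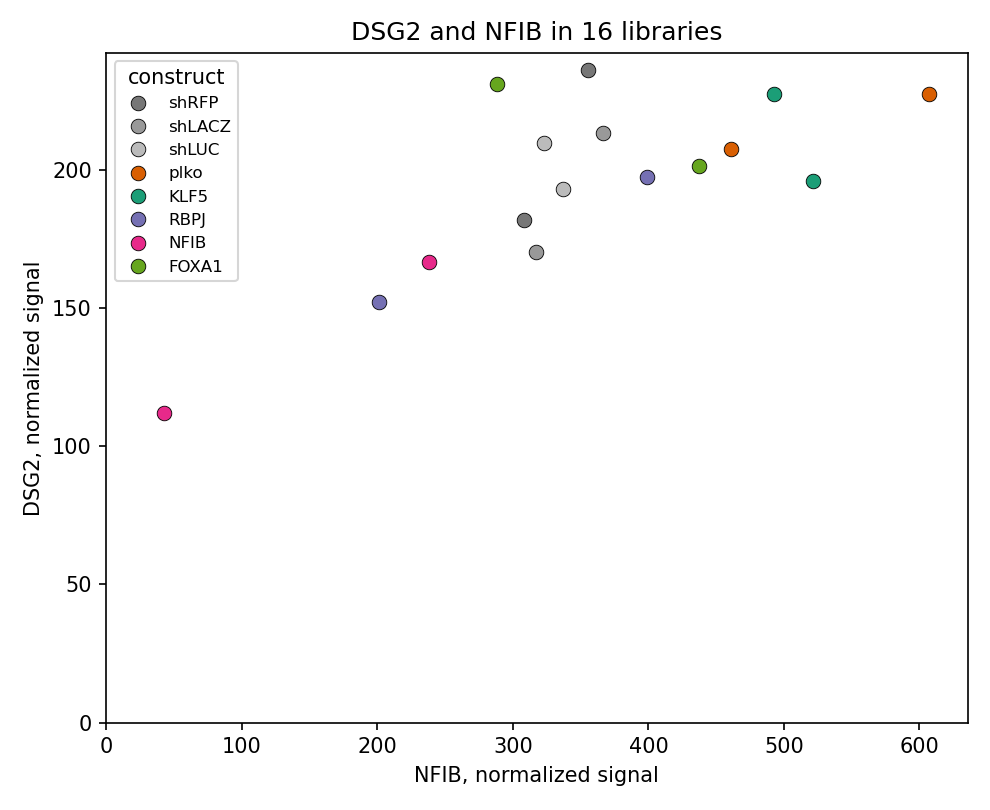
DSG2 against NFIB, both as normalized signal on axes from 0, with 1 point per library coloured by construct. NFIB 2 (NFIB 42.2, DSG2 112) and RBPJ 2 (201, 152) are the lowest points, and at NFIB values of 288 and above DSG2 lies between 170.4 and 236.

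E-cadherin and P-cadherin, the classical cadherins of the adherens junction, did not pass in any of the 6 comparisons. CDH1 (ENSG00000039068) was at 421 to 759 in the hairpin controls, with a median of 639. NFIB 2 stood out at 256 (exact 95% Poisson interval 236 to 278), while NFIB 1 was at 739 (695 to 784), so the NFIB difference of -0.47 (95% interval -1.05 to 0.10, limma adjusted p = 0.806) averages unlike clones. The highest CDH1 values were RBPJ 2 at 861 and FOXA1 1 at 818. The other libraries were at 432 and 603 (plko), 551 and 743 (KLF5), 629 (RBPJ 1) and 669.9 (FOXA1 2). For KLF5 the difference was 0.08 (95% interval -0.49 to 0.65, limma adjusted p = 0.896).

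CDH3 (ENSG00000062038) was the most variable of these genes among the hairpin controls, at 362 to 1044 with a median of 829.4. Its coefficient of variation there was 31.4%, against 3.39% from counting. The low control was shLACZ 2, at 362, next to 333 in plko 1 and 626 in plko 2. The KLF5 (781 and 1029), RBPJ (727 and 895), NFIB (995 and 935) and FOXA1 (1096 and 779.6) libraries all lay within or just above the control range. The plko difference of -0.73 (95% interval -1.34 to -0.13) did not pass (limma adjusted p = 0.13), but did without shLACZ 2 (-0.95, limma adjusted p = 0.0175) and without plko 2 (-1.19, limma adjusted p = 0.0397), and was -0.28 without plko 1. The CDH1 to CDH3 ratio was 0.573 to 0.802 in 5 hairpin controls and 1.53 in shLACZ 2. It was 1.3 and 0.963 in plko and 0.742 and 0.274 in NFIB 1 and NFIB 2.

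CTNNB1 (ENSG00000168036), which links cadherin tails to alpha-catenin, was at 34.3 to 57.1 in the hairpin controls with a median of 51. It was above all 6 with plko, at 77.2 and 61.3. With the RBPJ hairpins it was at 32.6 and 35.1 and with the NFIB hairpins at 34.8 and 36.3, around the lowest control. The differences were 0.50 (95% interval 0.02 to 0.98) for plko, -0.50 (-0.98 to -0.02) for RBPJ and -0.43 (-0.91 to 0.05) for NFIB, with limma adjusted p of 0.196, 0.813 and 0.776. KLF5 (55.4 and 44.3) and FOXA1 (45.4 and 69.1) spread on both sides of the control mean of 48.9 ± 8.54 (SD, n = 6). CTNNB1 rests on 32 to 131 reads per library, and the coefficient of variation of its controls was 17.4%, against 14% from counting.

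**Figure D4:**
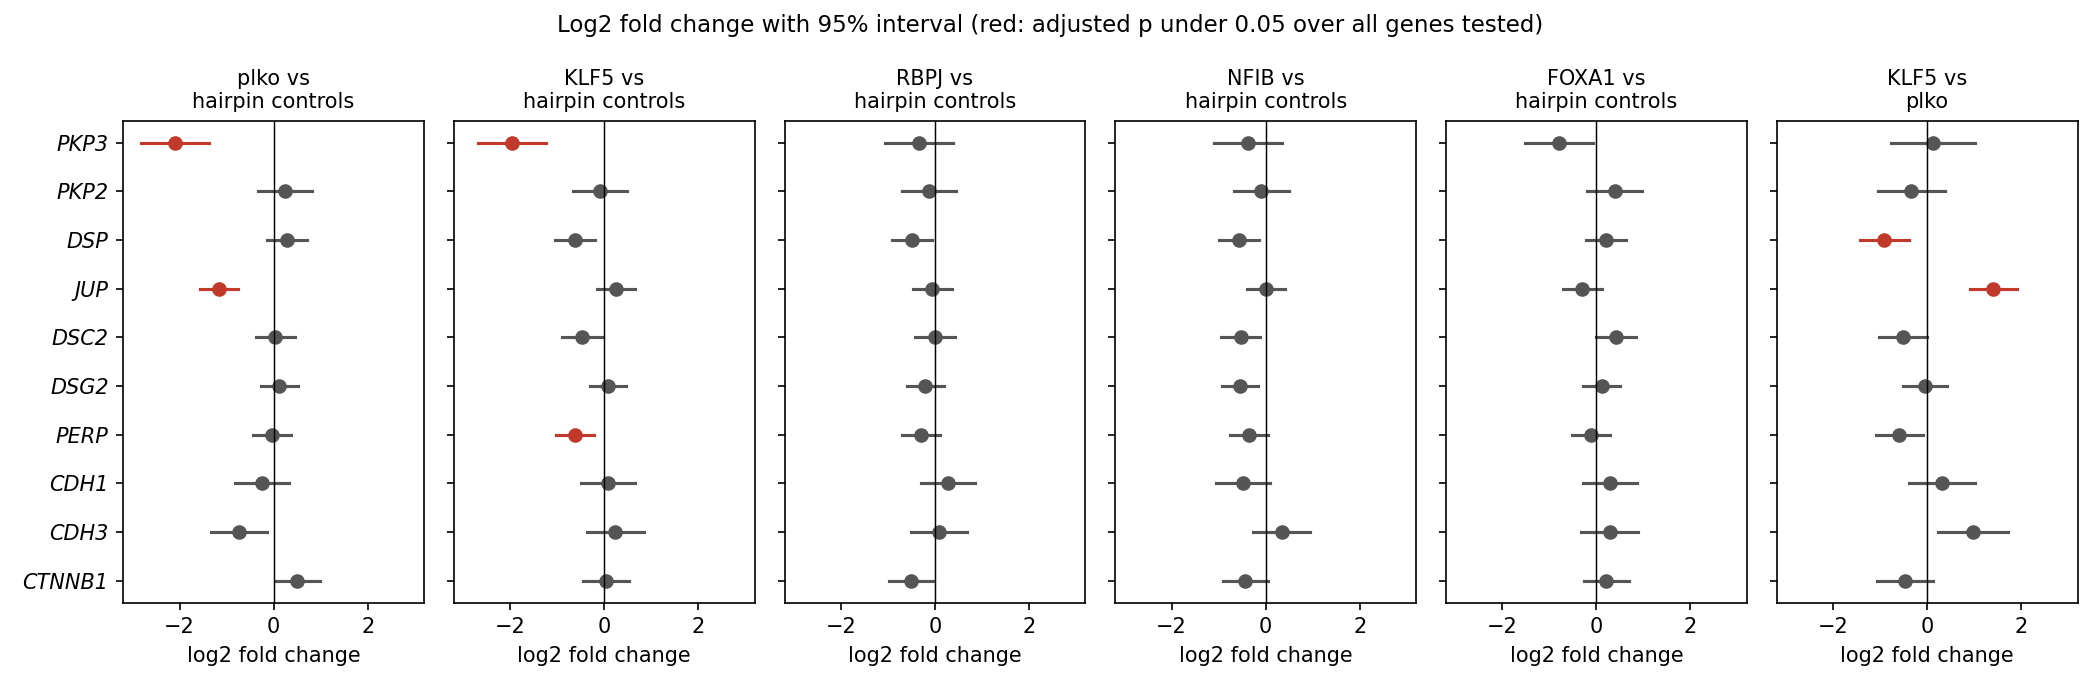
Log2 fold change (horizontal axes) of each gene in 6 comparisons, as points with 95% intervals, in red where the limma adjusted p over all genes tested was under 0.05. PKP3 is red with plko (-2.09) and KLF5 (-1.97), JUP with plko (-1.16), PERP with KLF5 (-0.62), and DSP and JUP between KLF5 and plko (-0.91 and 1.41).

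As a set, 2 of the 10 genes fell with the KLF5 hairpins (PKP3 and PERP) and 0 rose. Over all genes tested 6.61% were called lower, 4.42% higher and 11% in either direction. At an unadjusted p under 0.05 there were 4 of 10, against 24.9%. Without KLF5 1, or with all 8 controls, 0 of 10 were called. The median log2 difference of the 10 was -0.03, against 0.05 over all genes tested, and both KLF5 libraries lay below every hairpin control for 3 of the 10 (PKP3, DSC2 and PERP), where the share over all genes was 13.4%. With plko, 2 of 10 fell (PKP3 and JUP) and 0 rose, against 5.63% called lower, 1.88% higher and 7.5% in either direction, with medians of 0.0045 for the 10 and 0.01 over all. Both plko libraries lay below every hairpin control for PKP3 and JUP and above for CTNNB1, where 12.3% and 9.94% of all genes did, and 4 of 10 had an unadjusted p under 0.05, against 23%. Without plko 1, 1 of 10 was called. Between KLF5 and plko, 1 was higher (JUP) and 1 lower (DSP), where 2.27% and 1.16% of all genes were called (3.44% in all). That count was 0 without plko 1 or KLF5 1. By the F test over the 8 constructs 2 of 10 passed, PKP3 (limma adjusted p = 0.00853) and JUP (limma adjusted p = 0.0183), against 4.42% of all genes. That count was 1 without KLF5 1, KLF5 2 or plko 1, 5 without RBPJ 1 or RBPJ 2, and 0 with both plko libraries left out, an alternative chosen after seeing the data. In that last alternative 3 of 10 were called for KLF5, with DSP added (limma adjusted p = 0.048).

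For the other targets limma called 0 of 10 genes, as did edgeR and DESeq2. Over all genes limma called 0.0277% for RBPJ, 0.00924% for NFIB and 0.00924% for FOXA1. At an unadjusted p under 0.05 limma gave 3 of 10 for NFIB (DSP, DSC2 and DSG2), 2 for RBPJ (DSP and CTNNB1) and 2 for FOXA1 (PKP3 and DSC2), where the shares over all genes were 6.53%, 6.01% and 6.96%. With NFIB 9 of 10 differences were negative, with a median of -0.40 against 0.04 over all genes, and JUP stood at 0 to 2 decimals (-5.2e-05). Both NFIB libraries lay below every hairpin control for DSP, DSC2 and DSG2, where 4.47% of all genes did. With RBPJ this held for DSP alone of the 10 (4.03% of all genes), and with FOXA1 for PKP3 and JUP (5.83%). The 4 targets share the hairpin controls, so their differences are not independent of each other. In the 6 direct comparisons between 2 targets, 3 calls were made among the 10 genes: PKP3 between KLF5 and RBPJ, PKP3 between KLF5 and NFIB, and DSC2 between KLF5 and FOXA1. Over all genes 5.68%, 6.84% and 6.11% passed in these 3 pairs, 3.38%, 4.36% and 3.16% with KLF5 lower. In the other pairs 0% (RBPJ and NFIB), 0.12% (RBPJ and FOXA1) and 0.0554% (NFIB and FOXA1) passed. The 3 calls became 0 without KLF5 1 or with all 8 controls and 6 without RBPJ 1. By DESeq2 0 of 10 passed between KLF5 and NFIB.

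The 10 genes did not move as a block across the 16 libraries. Of their 45 pairs 30 had a positive Pearson r on log2 values, with a median of 0.24. The highest were DSP with DSC2 (0.70), JUP with CDH3 (0.67), DSP with PERP (0.64) and DSP with PKP2 (0.64), and the lowest was JUP with CTNNB1 (-0.49). The genes most like PKP3 were NMRAL1 (0.95), MRPL14 (0.95) and JPT1 (0.94). Over the 12 libraries other than plko and KLF5 these were 0.90, 0.93 and 0.82. The 3 genes were picked by r over all 16 libraries, so a high r over 12 of them is no independent check. The 12 include RBPJ 1 and RBPJ 2, where PKP3 was at 58.7 and 224. KRT8 and ACTB, at 0.90 and 0.87 with PKP3 over all 16, were at 0.84 and 0.74 over the same 12. The genes most like JUP were ALG12 (0.91), ARHGDIA (0.90) and AP2S1 (0.90), at 0.54, 0.51 and 0.68 over the 14 libraries other than plko. Those most like DSP and DSC2 were CENPF (0.88) and CDK6 (0.88), and those most like PERP and CTNNB1 were ATP1B3 (0.88) and ELOVL5 (0.86). PKP2, CDH1 and CDH3 were nearest to CRLS1 (0.88), PPARD (0.85) and RIOX1 (0.86). All these values compare genes that, within each library, share its depth and its size factor.

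Of 6 further desmosome and plakin genes tested, of 10 listed, 2 rose with KLF5: PKP1, the plakophilin of stratified epithelia, to 257 and 194 from 99.8 ± 12.8 (SD, n = 6; log2 1.16, limma adjusted p = 0.00274), and PKP4, of junctional plaques (0.82, limma adjusted p = 0.0302). In both KLF5 libraries PKP1 stood above every hairpin control and PKP3 below. Over all genes tested 13.4% lay below in both KLF5 libraries, and the share that lay above is not given here. In plko PKP1 was at 92.7 and 133, inside the control range of 79.9 to 112 and above it. PKP1 did not pass between KLF5 and plko (1.00018, limma adjusted p = 0.0659). PKP4 was at 0.76 with plko (limma adjusted p = 0.0535) and at 0.05 between KLF5 and plko (limma adjusted p = 0.947). Over all genes tested 4.42% were called higher with KLF5 and 5.63% lower with plko. With plko EVPL, the envelope precursor envoplakin, fell to 8.82 and 19.8 from 31.4 ± 3.38 (SD, n = 6; log2 -1.17, limma adjusted p = 0.0135), a value that rests on 4 and 32 reads. Its KLF5 values were 29.1 and 35, and EVPL did not pass between KLF5 and plko (1.204, limma adjusted p = 0.0529).

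Of 17 other adherens junction genes tested, of 22 listed, 2 fell and 2 rose with the KLF5 hairpins, where 6.61% and 4.42% of all genes tested did (11% in either direction). CTNNA1, the alpha-catenin that couples the cadherin complex to actin, fell by 0.67 to 126 and 115 from 194 ± 20.3 (limma adjusted p = 0.0108), and NECTIN1, an immunoglobulin-like adhesion receptor, by 0.65 (limma adjusted p = 0.0428). AFDN, the nectin-binding protein afadin, rose by 0.96 (limma adjusted p = 0.00959) and ACTN4, an actin crosslinker, by 0.80 (limma adjusted p = 0.0127). AFDN also rose with plko (0.83, limma adjusted p = 0.0362), and ACTN4 was higher with KLF5 than with plko (1.08, limma adjusted p = 0.0196). CTNNA1 and NECTIN1 were at -0.52 and -0.36 with plko (limma adjusted p = 0.058 and 0.311). Between KLF5 and plko, CTNNA1 (-0.15), NECTIN1 (-0.29) and AFDN (0.14) did not pass, at limma adjusted p of 0.758, 0.568 and 0.845. The medians of these 17 were 0.34 with KLF5 and -0.26 with plko, against 0.05 and 0.01 over all genes.

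Among 14 tight junction genes and 11 regulators of epithelial junctions tested, 0 passed in any of the 6 comparisons. The 2 largest KLF5 differences among the tight junction genes were CLDN3 (1.64, limma adjusted p = 0.0696) and OCLN (0.98, limma adjusted p = 0.165). Of the cadherin repressors, ZEB2 was at 1.41 (limma adjusted p = 0.151) and SNAI2 at 0.80 (limma adjusted p = 0.264), and TP63 and ZEB1 were too low to be tested, at no more than 4.78 and 8.45 in any library. Of 18 genes of beta-catenin turnover and Wnt targets, 3 rose with KLF5: AXIN1, the scaffold of the destruction complex (1.06, limma adjusted p = 0.01), TNKS2, a tankyrase that marks axin for destruction (0.86, limma adjusted p = 0.00776), and the Wnt effector TCF7 (0.90, limma adjusted p = 0.0293). With plko 1 fell, the kinase gene GSK3A (-1.27, limma adjusted p = 0.00309). AXIN1 (1.05), TNKS2 (0.52), TCF7 (0.92) and GSK3A (0.86) did not pass between KLF5 and plko. Their limma adjusted p were 0.0735, 0.259, 0.113 and 0.111. Over all genes 4.42% were called higher with KLF5 and 5.63% lower with plko, and the median of the 18 with KLF5 was 0.11 against 0.05. For RBPJ, NFIB and FOXA1 limma called 0 genes of these lists.

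Markers of other cell types were low. Of 7 fibroblast markers 4 were in the table, and their summed signal was 8.38 to 25.8 in the hairpin controls, 11 to 19.8 in plko, 35.5 to 43.2 in KLF5, 20.9 to 25.1 in RBPJ, 38.3 to 40.1 in NFIB and 12.5 to 22.5 in FOXA1. COL1A1, the only 1 of the 7 tested, rose with KLF5, to 27 and 29.2 from 11.7 ± 7.1 (SD, n = 6, log2 1.33, limma adjusted p = 0.0291). Over all genes tested 4.42% were called higher with KLF5. With NFIB the COL1A1 difference was 1.34 and did not pass (limma adjusted p = 0.516). DCN was at 4.27 and 5.83 with KLF5 and at 0 in 5 libraries. Of 5 endothelial markers 0 were in the table, and of 6 leukocyte markers 2 were, summing to 8.82 to 51.2 over all libraries. The part of these levels in the KLF5 and NFIB differences was not tested.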

How the data were processed

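RNA of 16 HCC70 libraries was read as barcoded 3′ cDNA amplified by in vitro transcription in batches of 12 samples, some run a second time, per the labels' protocols. The batch of each sample, the aligner, the counting tool and the use of molecular identifiers are not given here, and genome build GRCh37 is named per the submitters' processing notes. The authors deposited a normalized signal, and the table's own name says that DESeq2 made it. Dividing each column by its smallest positive value gave whole reads for 100% of entries (tolerance 0.05 of a read). A further 2 columns, which fit no labelled sample, were left out. Symbols were matched through a table of identifiers for 11259 of 11282 genes.

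The test was limma 3.58.1 (R 4.3.3) with a mean-variance trend on log2(value + 1), fitted to all 16 libraries with 6 groups: hairpin controls, plko, KLF5, RBPJ, NFIB and FOXA1. A gene needed 5 or more in 2 or more libraries (10826 did), p-values were 2-sided, and Benjamini-Hochberg adjustment ran over all of them with a threshold of 0.05. An F test used the 8 constructs. Alternatives were pseudocounts of 0.5 and 5, no filter or a filter at 20, TMM scaling, scaling to totals, all 8 controls as reference, no trend, a replicate block, leaving out each library, and edgeR 4.0.16 and DESeq2 1.42.0 on the recovered reads. On these reads edgeR called 1171 genes for KLF5 against the hairpin controls. The fit was run on simulated data in which every gene and library had the same spread beyond counting. That setting does not cover the unequal spread between pairs given next. Chi-square divided by its degrees of freedom was 1.96 to 18.8 between the 2 libraries of a construct, so no pair agreed within counting error. Each library was counted as its own sample, but spread beyond counting does not show that libraries came from separate cultures.

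Named genes were the 10 junction genes, at most 4 called genes or 2 uncalled genes per list and comparison, and the 3 genes nearest in pattern to each junction gene; KRT8, ACTB, ESR1, PGR and the markers given by level were named after their values were seen. The genes, lists and reference group were chosen with earlier results of these data known.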

Additional observations from a re-analysis of the deposited data

Results flagged for a closer look

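PERP in shLACZ 1, at 492.8, lay apart from the other 5 hairpin control libraries. The 10 genes were each examined for such a library, and chance marks about 1 group in 20.

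Differences that passed between 2 constructs other than the hairpin controls were DSP and JUP between KLF5 and plko (log2 -0.91 and 1.41), PKP3 between KLF5 and RBPJ (-1.63) and between KLF5 and NFIB (-1.59), and DSC2 between KLF5 and FOXA1 (-0.90). Each was the direct limma comparison, with 2 libraries on each side.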

How the results depend on the processing

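Of the 10 genes, PKP3 and JUP with plko kept their calls under every alternative except JUP without plko 1. Counts are given as genes of the 10, with all genes tested in brackets where these moved by over 1.5 times. With all 8 controls the KLF5 count was 0 (581 against 1194) and that over the 6 target pairs 0 (818 against 2036). Without the mean-variance trend the counts were 1 for KLF5, 0 for KLF5 against plko (37 against 372), 0 by the F test (22 against 478) and 0 over the target pairs (913), with 377 of all genes for plko against 812 and 0 for RBPJ, NFIB and FOXA1. With edgeR they were 1 for KLF5 against plko (146) and 1 by the F test, with 382 of all genes for plko, 1 for RBPJ and 0 for NFIB. DESeq2 gave 485 of all genes for plko, 29 for RBPJ, 4 for NFIB and 2 for FOXA1, a pseudocount of 5 gave 9 for RBPJ and 2 for FOXA1, and TMM gave 2 for NFIB. Leaving out both plko libraries, an alternative added after seeing the data, gave 0 by the F test, 6 of all genes for RBPJ and 2 for FOXA1. Without single libraries the counts were 0 to 3 for KLF5 (365 to 1320), 1 to 3 for plko (131 to 1115), 0 to 3 for KLF5 against plko (0 to 958), 1 to 5 by the F test (140 to 1210) and 0 to 6 over the target pairs (599 to 2974). For RBPJ, NFIB and FOXA1 they were 0 of 10 (0 to 205, 0 to 4 and 0 to 30). The cause was not tested.

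Replicate numbers did not pair the libraries: over 28 pairs of constructs the correlation of deviations ran from -0.29 to 0.29, and 9 exceeded 0.1. A replicate block gave 3 of 10 for KLF5 and 4 over the target pairs. Depth limits PKP2 and CTNNB1 most, and single libraries of low depth, plko 1 above all.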
